A study of Homo sapiens with 6 samples.

Results

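RNA levels of 95D cells deprived of glutamine were compared directly with those of 95D cells deprived of glucose. 95D is a human lung cancer cell line, labelled wild type. Members of the comparison were chosen by their labels alone: the 2 libraries of glucose deprivation and the 2 of glutamine deprivation, 4 of the 6 libraries of the series. Cells were seeded for 24 h in complete DMEM with 10% fetal bovine serum, then kept for 48 h in glucose-free or in glutamine-free DMEM, each with 10% dialyzed fetal bovine serum. The 2 control libraries came from cells kept in control DMEM, for which no dialyzed serum is named, so they stood outside the tests and their levels are given only for reference. Both compared groups thus shared the cell line, the seeding, the dialyzed serum and the duration, and differed in the nutrient removed. Nothing in the labels states that replicates came from different cultures, and p-values here therefore describe the scatter of these 4 libraries, which could be technical.

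One of the 4 columns carries a conflicting name. In the glutamine table the header of the second value column names glucose deprivation replicate 2. Among the 16469 genes with at least 1 FPKM (fragments per kilobase of transcript, scaled to the depth of the library) in that column or in replicate 2 of the glucose table, 0 had the same value in both. The column was therefore used, by its position in the glutamine table, as the second glutamine-deprived library. A fit on the 3 remaining libraries is given beside part of the counts and named genes below. Where it is not given, a count may still move without that column.

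Depth inferred from the steps of low values ranged from 34530000 to 39410000 reads in the 4 libraries. Log2 levels correlated across genes with r = 0.985 between the glucose-deprived libraries, 0.984 between the glutamine-deprived libraries, and 0.957 at most between the groups. Genes are not independent replicates, so these values are descriptions. Of 9 epithelial markers, KRT8 and KRT18 were above 1 FPKM while KRT19, KRT7 and EPCAM stayed at or near 0. Surfactant genes SFTPA1 and SFTPB were at 0 in all 6 libraries, and the lung lineage factor NKX2-1 reached 0.746 to 1.28 scaled FPKM. All 6 mesenchymal markers were measured, and VIM, which encodes vimentin, was the most abundant of them. Of 22 markers of blood, endothelium, fibroblasts and muscle, liver and neural cells, only SYP, a synaptic vesicle protein gene, passed the filter on low values, and CD3E, CLDN5 and MBP were at 0 throughout.

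Glucose feeds glycolysis, the pentose phosphate pathway and the synthesis of the sugar chains that are attached to proteins in the endoplasmic reticulum (ER). Glutamine supplies nitrogen for nucleotides and other amino acids and carbon for the tricarboxylic acid cycle. Loss of either nutrient is known to engage stress programmes. Misfolded proteins in the ER activate the sensors PERK, IRE1 and ATF6, whose joint output is the unfolded protein response. Amino acid shortage activates the kinase GCN2. PERK and GCN2 both raise translation of the transcription factor ATF4. The mTORC1 kinase complex, which promotes growth and the translation of ribosomal protein mRNAs, is restrained when amino acids or energy run short.

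Levels below are scaled FPKM, and each difference is glutamine minus glucose deprivation on the log2(scaled FPKM + 1) scale with its standard error (SE). This scale understates changes of genes expressed at a low level. Of 17035 genes tested with limma, 8219 passed an adjusted p of 0.05, 48.2% of those tested. In glutamine deprivation 4091 were higher, 24.0%, and 4128 lower, 24.2%. Counts of list members below are to be read beside these shares. Most differences were small: 330 of the 8219 reached 2-fold, 236 higher and 94 lower, and 23 reached 4-fold. Among genes with a mean of at least 3 on the log2 scale the directions were even. There 109 calls reached 2-fold, 55 higher and 54 lower. Without the column named for glucose, 5542 genes passed, and 5459 of the 8219 calls were also made. The balance of directions depended on how libraries were scaled, since 71.4% of calls were higher with values as deposited, 90.4% when each library was divided by its total and 40.1% with upper-quartile scaling, against 49.8% here. These scalings moved the median difference of all genes from 0.02 to 0.14, 0.25 and -0.04. Calls of at least 2-fold were less affected, and 321 to 328 of the 330 kept their call under the 3 other scalings. Among genes named below, ADSL, ASNS, ATF6, CDK1, COX7C, ERO1B, GLUL, HK2, HSPA1B, MLX, NCOA4, NME2, NUF2, P4HB, PGD, PPAT, PRKAA1, SHMT2, SLC2A1, SLC38A2, STT3A, TFAM, TRIB3, TSC1, TTK and XBP1 did not pass with division by totals.

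The direction also moved with properties of the genes. The median difference rose from -0.09 in the quartile of genes with the lowest GC content to 0.16 in the top quartile, and fell from 0.20 in the quartile with the lowest level to -0.15 in the top quartile. Between the glucose-deprived replicates the same GC quartiles had medians of 0.04 and -0.07. With trends over GC content and length removed 8447 genes passed, 3967 higher and 4480 lower. All 39 genes recomputed this way kept direction and call, and 2 of them moved by over 1.5 times, SLC1A5 from 0.28 to 0.16 and SLC38A2 from -0.27 to -0.17. The part of level was not tested. The filter needs 1 FPKM in any deprived library, and the balance of directions also moved with it. Of 13688 genes that reached 1 FPKM in all 4 deprived libraries 7285 passed, 3225 higher and 4060 lower. There 44.3% of calls were higher, against 49.8% in the main fit. RNA-seq values are relative, so a change in total RNA per cell or in the number of cells cannot be read from them.

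A set of 5 genes represented the contrast. TXNIP encodes a thioredoxin-binding arrestin that limits glucose uptake. It stood at 1.43 and 1.23 in glucose deprivation and at 10.2 and 7.37 in glutamine deprivation, a difference of 2.06 ± 0.12 (adjusted p = 5.88e-07). The 4 others were lower in glutamine deprivation. PDIA4, a protein disulfide isomerase of the ER, fell from 239 and 241 to 67.2 and 60.9, a difference of -1.89 ± 0.06 (adjusted p = 6.33e-08). MANF, a secreted ER stress factor, stood at 49.8 and 47.8 against 13.7 and 13.9, a difference of -1.75 ± 0.05 (adjusted p = 5.04e-08). For HSPA8, the constitutive cytosolic HSP70 chaperone, levels were 473 and 488 against 153 and 157, a difference of -1.63 ± 0.07. TFRC, the transferrin receptor through which cells take up iron, stood at 62.2 and 61.9 against 19.3 and 22.8, a difference of -1.52 ± 0.07. These genes had been picked with earlier results of these data known, so their size describes the comparison and is not separate evidence for it.

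Set beside the control libraries, the 5 genes did not share a pattern. TXNIP in control cells, at 6.43 and 6.63, was near its glutamine-deprived level. PDIA4 in control cells, at 86.9 and 88.2, lay between the groups but close to glutamine deprivation. TFRC in control cells, at 55.6 and 55.1, lay close to glucose deprivation. HSPA8, at 314 and 361 in control cells, lay between the groups. Without the column named for glucose, the 5 differences were 2.26, -1.81, -1.75, -1.64 and -1.62 in the order given above, and all 5 passed.

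**Figure D1:**
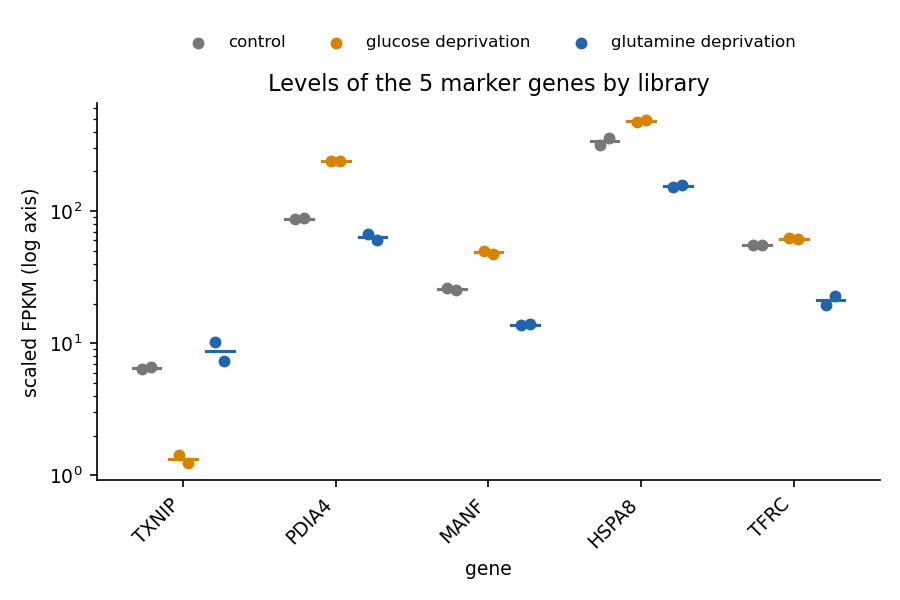
Scaled FPKM (log axis) of the 5 marker genes in each of the 6 libraries; points are libraries and short bars are group means. TXNIP is higher in both glutamine-deprived libraries than in both glucose-deprived ones, and the 4 other genes are lower.

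In the annotation of GENCODE release 29 on GRCh38, TXNIP lies on the minus strand at chr1:145992435-145996600, PDIA4 on the minus strand at chr7:149003062-149028641 and MANF on the plus strand at chr3:51385047-51389397. HSPA8 lies on the minus strand at chr11:123057489-123063230 and TFRC on the minus strand at chr3:196027183-196082189.

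The ER protein folding machinery was lower in glutamine deprivation than in glucose deprivation almost throughout. Of 26 measured members 24 fell, 1 rose and 1 did not pass, with a median difference of -0.87 against 0.02 for all genes tested, of which 24.2% fell. The count of members that fell was 24 without the column named for glucose and 16 when libraries were divided by their totals. All 12 lumen chaperones and co-chaperones fell, with a median of -1.07, and 11 of 12 disulfide isomerases and oxidases fell. In sum over the 26 genes, scaled FPKM was 2225 and 2197 in glucose deprivation, 983 and 960 in glutamine deprivation, and 1342 and 1357 in control cells. The list thus lay above the control libraries in glucose deprivation and below them in glutamine deprivation.

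Promoters of several of these genes hold the letters of the ER stress response element, known to bind NF-Y with ATF6, and these stretches are shown because the genes were lower together. A match is a description of letters, not of binding. The element (ERSE) was searched as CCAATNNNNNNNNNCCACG and its second form (ERSE-II) as ATTGGNCCACG, on both strands, in RefSeq promoter windows of 250 bases before to 50 after the start (GRCh38.p14). ERSE was found in 22 of 27305 promoters (0.0806%) and in 14 of 9921 windows of genes tested (0.141%). Of 25 ER folding genes with a window 6 held it: HSPA5, HSP90B1, CALR, CANX, CRELD2 and ERO1B. ERSE-II was found in 15 of all promoters (0.0549%), in 11 windows of genes tested (0.111%) and in 2 of the 25, HYOU1 and SDF2L1. Neither was found in the windows of PDIA4 or MANF. Capitals mark the fixed letters of the element, and all stretches run 5′ to 3′ on the gene's own strand. They lie at chr9:125241361-125241439 (minus strand), chr12:103930186-103930369 (plus), chr19:12938359-12938432 (plus), chr5:179698748-179698826 (plus) and chr11:119057244-119057420 (minus).
HSPA5: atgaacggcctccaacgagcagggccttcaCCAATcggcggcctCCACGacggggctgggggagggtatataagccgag
HSP90B1: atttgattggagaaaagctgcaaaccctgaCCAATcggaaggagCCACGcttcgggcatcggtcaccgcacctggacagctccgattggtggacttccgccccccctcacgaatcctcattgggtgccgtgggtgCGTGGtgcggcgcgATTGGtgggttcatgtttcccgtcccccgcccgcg
CALR: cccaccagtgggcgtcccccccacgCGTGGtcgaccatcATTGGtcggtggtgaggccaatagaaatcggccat
CANX: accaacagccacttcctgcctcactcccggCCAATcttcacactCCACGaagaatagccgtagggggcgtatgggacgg
HYOU1: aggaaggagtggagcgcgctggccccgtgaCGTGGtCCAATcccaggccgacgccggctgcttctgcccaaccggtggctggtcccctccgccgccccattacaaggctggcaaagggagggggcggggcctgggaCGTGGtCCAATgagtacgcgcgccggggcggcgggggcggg

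The genes with these stretches all fell, though not by the same amount. HSPA5, the ER HSP70 chaperone BiP, stood at 186 and 166 in glucose deprivation and 68.8 and 67.4 in glutamine deprivation, a difference of -1.35 ± 0.07 (adjusted p = 2.59e-07). HSP90B1, the ER HSP90 chaperone, stood at 394 and 368 against 127 and 131, a difference of -1.55 ± 0.07. CALR, the calcium-binding lectin chaperone calreticulin, stood at 300.2 and 310 against 99.7 and 95.0, a difference of -1.64 ± 0.06. Its membrane-bound relative CANX stood at 380 and 377 against 206 and 202, a difference of -0.89 ± 0.08. HYOU1, which exchanges nucleotide on BiP, differed by -1.17 ± 0.06. In control cells HSPA5 was at 84.5 and 81.7 and HSP90B1 at 181 and 185, between the groups in both cases.

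**Figure D2:**
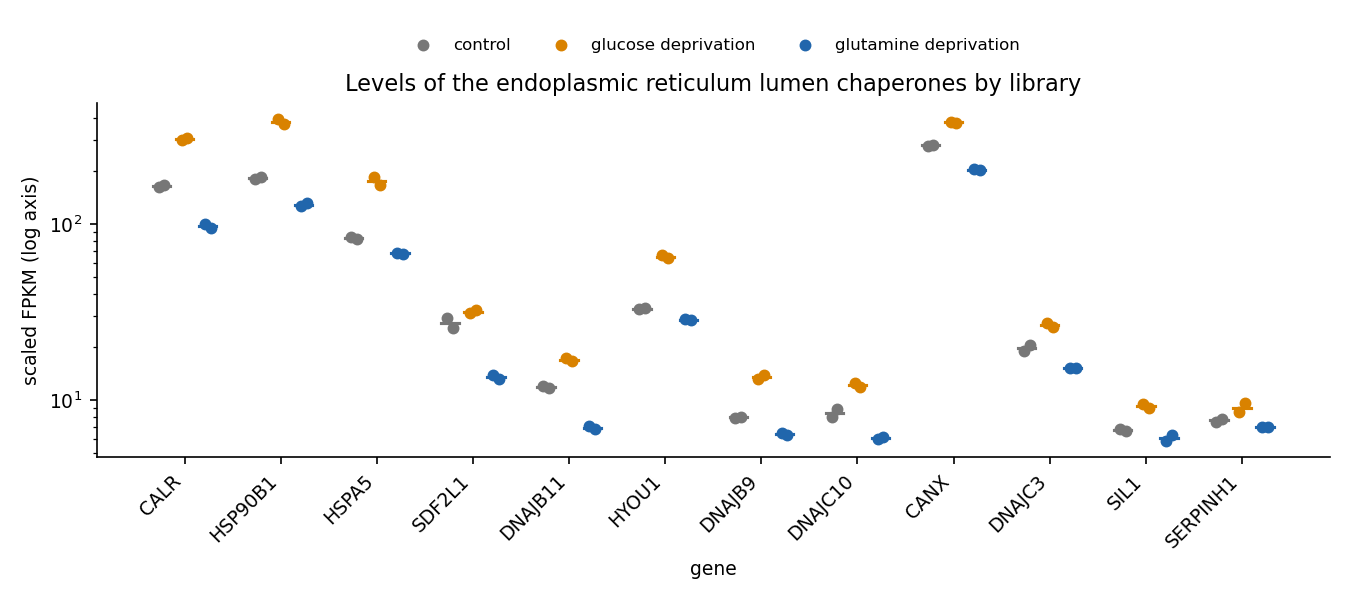
Scaled FPKM (log axis) of the 12 ER lumen chaperones and co-chaperones in the 6 libraries, ordered by their difference; points are libraries and short bars are group means. Every gene is lower in both glutamine-deprived libraries than in both glucose-deprived ones.

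Other members of the list followed with smaller differences. Among co-chaperones, SDF2L1 differed by -1.18 ± 0.07, DNAJB11 by -1.17 ± 0.05, DNAJB9 by -0.97 ± 0.06 and DNAJC3 by -0.77 ± 0.05. Among disulfide isomerases, which form and rearrange disulfide bonds, PDIA6 differed by -1.10 ± 0.06, PDIA3 by -0.86 ± 0.06 and P4HB by -0.51 ± 0.06. The oxidase ERO1A was the member that rose, from 14.6 and 14.5 to 16.2 and 16.6, a difference of 0.16 ± 0.05 (adjusted p = 0.0229), and it did not pass without the column named for glucose (adjusted p = 0.0936) or with upper-quartile scaling (adjusted p = 0.171). CDNF, the relative of MANF, stood at 2.10 and 1.87 against 1.80 and 1.99 and did not pass.

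Genes for entry into the ER and for ER-associated degradation were also mostly lower in glutamine deprivation. Of 26 measured members 18 fell and 1 rose, with a median of -0.38, and 16 fell without the column named for glucose but 6 with libraries divided by their totals. DERL3, a channel component of degradation, stood at 7.04 and 6.46 in glucose deprivation, 1.67 and 1.92 in glutamine deprivation and 1.34 and 1.41 in control cells, a difference of -1.47 ± 0.08 (adjusted p = 4.44e-07). SEL1L, the scaffold of the HRD1 ligase, differed by -0.97 ± 0.05. SRPRB, a subunit of the receptor for the signal recognition particle, differed by -0.82 ± 0.06 and the translocon-associated SSR4 by -0.75 ± 0.06. EDEM1, which directs glycoproteins to degradation, was the member that rose, by 0.19 ± 0.06, and it did not pass without the column named for glucose (adjusted p = 0.073) or with upper-quartile scaling (adjusted p = 0.112).

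In the hexosamine and N-glycan list 21 of 37 measured genes fell and 3 rose, with a median of -0.29, and 2 fell when libraries were divided by their totals. The oligosaccharyltransferase, the enzyme that attaches the sugar chain to proteins in the ER, accounted for 9 of the members that fell, out of 11 (1 of 11 with division by totals). Its subunit OSTC stood at 92.6 and 96.1 against 45.6 and 43.8, a difference of -1.06 ± 0.05. The catalytic subunit STT3A differed by -0.71 ± 0.05. The hexosamine part of the list holds genes that make the sugar donor UDP-GlcNAc, and also OGA. In it 2 of 8 fell and 2 rose, near the 24.2% and 24.0% of all genes. OGA, which removes O-linked GlcNAc from proteins, rose from 21.3 and 19.1 to 29.5 and 30.9, a difference of 0.56 ± 0.06, and GFPT2 of the entry step rose by 0.31 ± 0.06.

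The regulators of the unfolded protein response gave both directions. Of 10 measured, 5 fell and 3 rose, where 24.2% of all genes tested fell and 24.0% rose. Their median of -0.08 turned to 0.06 with values as deposited and 0.18 with division by totals. Only 2 fell and 2 rose in the fit without the column named for glucose. EIF2AK3, which encodes PERK, fell from 7.63 and 7.76 to 3.83 and 4.32, a difference of -0.78 ± 0.07 (adjusted p = 7.28e-06). ATF6 differed by -0.42 ± 0.06. XBP1, the target of IRE1, stood at 62.7 and 68.1 against 54.5 and 43.2, a difference of -0.42 ± 0.09, and missed the threshold without the column named for glucose (adjusted p = 0.0537). ERN1, which encodes IRE1, rose by 0.25 ± 0.07 and CREB3L2 by 0.31 ± 0.05. Spliced XBP1 cannot be read from gene-level values.

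Genes of the ATF4 and CHOP stress response split into both directions. Of 31 measured members 11 were higher and 12 lower in glutamine deprivation, and 8 did not pass. The median of 0.11 turned to -0.07 without glutamine deprivation replicate 1. Without the column named for glucose 14 were higher and 8 lower. ATF4 mRNA itself stood at 269 and 278 in glucose deprivation and 258 and 218 in glutamine deprivation, a difference of -0.20 ± 0.08 that did not pass (adjusted p = 0.0544).

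On the side higher in glucose deprivation, DDIT3, which encodes CHOP, stood at 35.7 and 35.3 against 15.96 and 10.3, a difference of -1.40 ± 0.14 (adjusted p = 1.75e-05), with 5.57 and 5.47 in control cells. PPP1R15A, which restores translation by dephosphorylating eIF2α, differed by -0.96 ± 0.08 and the stress factor ATF3 by -0.78 ± 0.11. ASNS, which makes asparagine with nitrogen from glutamine, stood at 74.0 and 73.6 against 50.4 and 43.5. Its difference of -0.65 ± 0.07 did not pass with division by totals (adjusted p = 0.104). Control cells held 24.5 and 22.3 of ASNS, so both deprivations lay above them. TRIB3, a pseudokinase induced by CHOP, differed by -0.42 ± 0.11 and did not pass with division by totals (adjusted p = 0.498) or without the column named for glucose (adjusted p = 0.0616).

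On the side higher in glutamine deprivation, CHAC1, which degrades glutathione, stood at 2.19 and 2.59 against 10.1 and 5.99, a difference of 1.38 ± 0.17 (adjusted p = 6.62e-05). DDIT4, an inhibitor of mTORC1, stood at 23.5 and 23.1 against 59.6 and 47.7, a difference of 1.16 ± 0.09. SESN2, which senses leucine and restrains mTORC1, stood at 20.7 and 21.8 against 51.5 and 38.1, a difference of 1.03 ± 0.11. In control cells DDIT4 was at 26.5 and 21.4 and SESN2 at 16.7 and 16.4, close to glucose deprivation. The serine synthesis enzyme PSPH differed by 0.62 ± 0.09. For all 4 of these genes the glutamine-deprived replicates differed from each other more than the glucose-deprived ones did.

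Subunits of one transporter family parted. SLC3A2 encodes the heavy chain CD98, which carries several amino acid transporters to the cell surface. It fell from 95.8 and 105 to 43.5 and 39.6, a difference of -1.26 ± 0.07 (adjusted p = 4.44e-07). Its light chain SLC7A5, a leucine and glutamine exchanger, rose from 56.2 and 61.0 to 98.2 and 90.6, a difference of 0.68 ± 0.06 (adjusted p = 1.35e-05). Its light chain SLC7A11, the cystine and glutamate exchanger, rose from 12.7 and 12.1 to 19.6 and 16.9, a difference of 0.52 ± 0.07. All 3 kept direction and call in the 17 alternatives run.

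**Figure D3:**
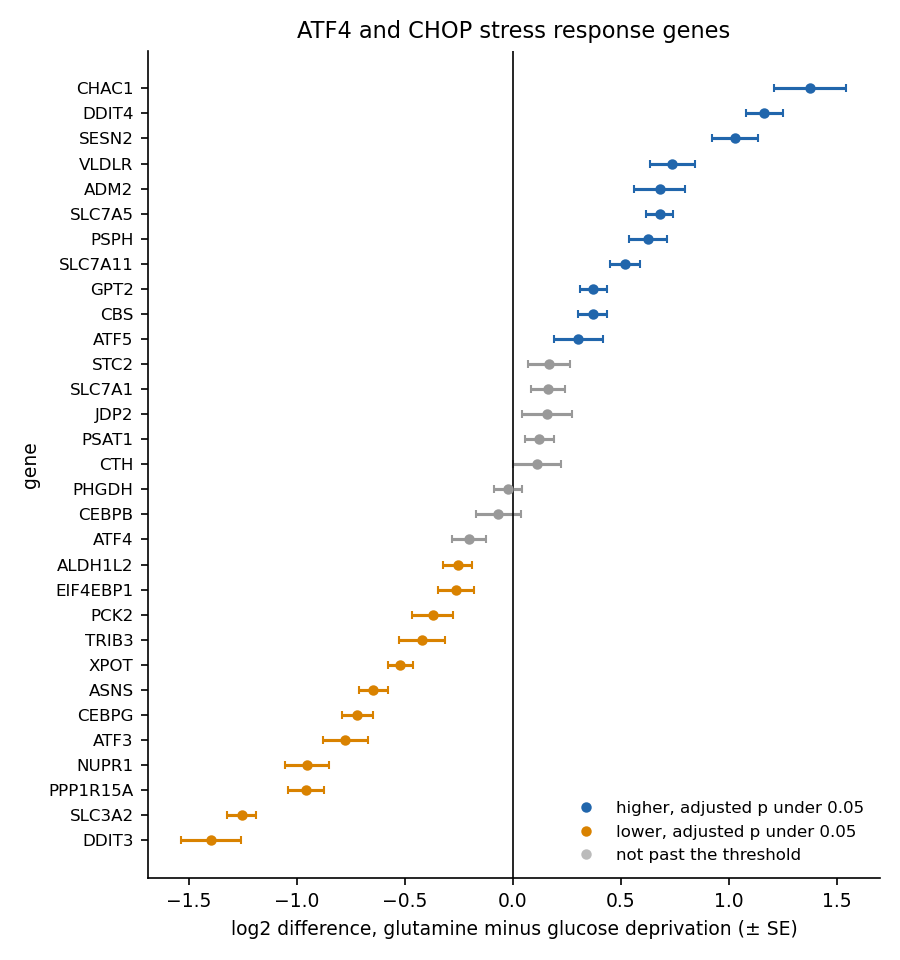
Log2 difference (glutamine minus glucose deprivation) ± SE for the 31 measured genes of the ATF4 and CHOP list. DDIT3 and SLC3A2 lie at -1.40 and -1.26, CHAC1 and DDIT4 at 1.38 and 1.16, with 8 genes between that did not pass.

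The C/EBP-ATF response element (CARE), bound by ATF4 with C/EBP partners, was searched as TGATGNAA on both strands. It was found in 1003 of 27305 promoters (3.67%) and in 156 of 9921 windows of genes tested (1.57%). In the list 5 of 25 windows held it: ATF3, ASNS, CHAC1, SLC3A2 and SLC7A1. The stretches of CHAC1 and ASNS are shown because both hold the element and moved in opposite directions. They lie at chr15:40953232-40953299 (plus strand) and chr7:97872439-97872506 (minus strand), with the element's fixed letters in capitals. In ASNS the element overlaps a match to the heat shock element described next.
CHAC1: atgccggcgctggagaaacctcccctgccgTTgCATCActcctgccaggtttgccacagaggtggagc
ASNS: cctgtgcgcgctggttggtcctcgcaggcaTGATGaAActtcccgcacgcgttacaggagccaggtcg

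The heat shock list gave both directions, and HSPA8 and HSPB8 had its largest differences. Of 33 measured members 7 rose, 11 fell and 15 did not pass, where 24.0% of all genes tested rose and 24.2% fell. The median of -0.04 turned to 0.10 with values as deposited and 0.24 with division by totals. Among the cytosolic HSP70 and HSP110 genes 3 of 6 measured fell, HSPA8 by the values given above. HSPA1B, a heat-inducible HSP70 whose reads can be shared with its near-identical copy HSPA1A, stood at 28.6 and 34.3 against 22.7 and 27.2, a difference of -0.32 ± 0.09 that did not pass with values as deposited (adjusted p = 0.167). That is below its 94.5 and 98.7 in control cells in both deprivations. The small heat shock protein HSPB8, which works with BAG3, stood at 5.83 and 6.61 against 1.63 and 1.05, a difference of -1.64 ± 0.12 (adjusted p = 2.19e-06). BAG3 moved the other way, from 4.92 and 4.77 to 8.20 and 7.83, a difference of 0.62 ± 0.07 (adjusted p = 4.25e-05). HSF1, the heat shock factor, stood at 9.78 and 11.4 against 10.5 and 10.3 and did not pass.

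Of the mitochondrial chaperones and proteases 4 of 7 fell, and the protease LONP1 had the largest difference among them, -0.83 ± 0.06. The chaperonin TRiC folds actin and tubulin. Of its 8 subunits 5 fell, with a median of -0.21 that turned to 0.09 with division by totals, where none passed. Without the column named for glucose 2 subunits fell.

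The heat shock element was searched as 2 facing units, GAANNTTC. It was found in 1875 of 27305 promoters (6.87%) and in 444 of 9921 windows of genes tested (4.48%). In the list 8 of 27 windows held it, those of HSPA8, HSPB8, HSPA1B, HSPB1, DNAJA1, DNAJB6, BAG2 and CHORDC1. Their differences ran from -1.64 to 0.28. The stretches of HSPA8 and HSPB8 are shown as those of the members with the largest differences, at chr11:123062149-123062386 (minus strand) and chr12:119178813-119178880 (plus strand), with the units in capitals. A second match in HSPB8, at bases 4 to 11 after the start, lies outside the stretch shown.
HSPA8: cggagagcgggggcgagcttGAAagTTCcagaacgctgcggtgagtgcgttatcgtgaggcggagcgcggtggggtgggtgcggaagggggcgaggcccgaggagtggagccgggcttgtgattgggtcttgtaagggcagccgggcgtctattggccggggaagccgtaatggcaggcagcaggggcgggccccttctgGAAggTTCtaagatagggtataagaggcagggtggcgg
HSPB8: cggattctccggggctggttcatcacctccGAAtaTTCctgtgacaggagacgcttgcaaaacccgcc

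Some arrestins that respond to glucose were higher in glutamine deprivation. MondoA, encoded by MLXIP, and ChREBP, encoded by MLXIPL, dimerise with MLX and are known to drive TXNIP and ARRDC4 when sugar phosphates are present. Of the 5 arrestins 3 rose, TXNIP, ARRDC4 and ARRDC1, and 2 did not pass. ARRDC4 stood at 3.36 and 3.32 against 7.03 and 6.03, a difference of 0.79 ± 0.08 (adjusted p = 1.76e-05), with 7.88 and 7.13 in control cells. MLXIP rose from 2.97 and 2.89 to 8.47 and 8.71, a difference of 1.29 ± 0.05 (adjusted p = 1.51e-07), with 2.83 and 3.01 in control cells. MLXIPL rose by 0.65 ± 0.10 while MLX fell by 0.64 on the log2 scale, from 13.5 and 13.98 to 8.75 and 8.14. Of the 6 subunits of the energy-sensing kinase AMPK, PRKAG1 fell by 0.84 and PRKAA1 by 0.48 on the log2 scale, and the other 4 did not pass. The E-box CACGTG was found in 2030 of 27305 promoters (7.43%) and in 1036 of 9921 windows of genes tested (10.4%). In this list it was found in 2 of 14 windows (14.3%), those of MLX and ARRDC4, and not in that of TXNIP.

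Genes that restrain mTORC1 were mostly higher in glutamine deprivation, 6 of 9 measured against 1 lower, with a median of 0.32. Of all genes tested 24.0% were higher and 24.2% lower. The 6 and the median include DDIT4L, described below. When the column named for glucose was left out, 5 were higher and none lower. Beside DDIT4 and SESN2, which the ATF4 list also holds, SESN3 stood at 7.67 and 7.09 against 14.2 and 14.3, a difference of 0.86 ± 0.06 (adjusted p = 1.23e-06). DDIT4L, a relative of DDIT4, stood at 0.460 and 0.410 against 1.40 and 1.31, so it entered the test only through glutamine deprivation and its call is no support for the count. TSC2, which inactivates the mTORC1 activator RHEB, rose by 0.32 ± 0.05, and its partner TSC1 stood at 5.66 and 4.99 against 4.58 and 4.30, a difference of -0.22 ± 0.06. TSC1 turned to 0.03 with division by totals and missed the threshold without the column named for glucose (adjusted p = 0.177).

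Iron genes had 2 large differences. TFRC is given above. FTL, the light chain of the iron store ferritin, stood at 355 and 381 in glucose deprivation and 158 and 159 in glutamine deprivation, a difference of -1.20 ± 0.06 (adjusted p = 2.3e-07), with 230 and 223 in control cells. FTH1, the heavy chain, stood at 112 and 114 against 107 and 98.1 and did not pass (adjusted p = 0.0694). NCOA4, which delivers ferritin to lysosomes, fell from 58.4 and 59.9 to 41.5 and 38.5, a difference of -0.55 ± 0.06. SLC40A1, the iron exporter ferroportin, stood at 0.680 and 0.647 against 1.89 and 1.84. It reached 1 FPKM only in glutamine deprivation, so its call had to follow that group and is given as a description. IREB2 and ACO1 encode the iron-regulatory proteins. They stood at 18.7 and 16.5 against 16.7 and 17.4 and at 7.15 and 7.30 against 8.55 and 8.91, and ACO1 passed. Of all genes tested 24.2% fell and 24.0% rose. Over all 19 iron genes 7 fell and 4 rose, with a median of -0.14 that turned to 0.13 with division by totals, and 5 fell without the column named for glucose.

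mRNAs of the mitochondrial genome were higher in glutamine deprivation. This genome is transcribed as long precursors from both strands and encodes 13 subunits of the respiratory chain. Of the 13 mRNAs 12 rose, where 24.0% of all genes tested did, and none fell, with a median of 1.82, and the same counts were found without the column named for glucose and with libraries divided by their totals. Their summed level was 3924 and 3553 in glucose deprivation, 7248 and 6047 in glutamine deprivation and 4683 and 4403 in control cells. Their reads can be shared with nuclear copies of mitochondrial DNA. One such copy, the pseudogene MTATP6P1, rose from 4.25 and 2.61 to 18.03 and 15.3, a difference of 2.02 ± 0.16.

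The size of the rise differed widely between the mRNAs. MT-CYB, the cytochrome b subunit of complex III, stood at 74.2 and 61.7 against 439 and 357, a difference of 2.53 ± 0.10 (adjusted p = 1.42e-07). Of complex I subunits, MT-ND5 differed by 2.24 ± 0.12, MT-ND2 by 2.10 ± 0.08 and MT-ND4 by 1.94 ± 0.09. MT-ATP6 of complex V stood at 60.3 and 39.5 against 232 and 193, a difference of 2.10 ± 0.15. Smaller differences belonged to the abundant complex IV mRNAs. MT-CO1 stood at 1702 and 1557 against 2396 and 1960, a difference of 0.41 ± 0.11, and MT-CO2 differed by 0.66 ± 0.09. MT-CO3 stood at 957 and 915 against 1948 and 1636, a difference of 0.93 ± 0.09, and at 2182 and 2056 in control cells, above both deprivations. MT-ND6, the 1 mRNA encoded on the other strand, stood at 29.1 and 22.9 against 28.5 and 23.3, a difference of 0.00 ± 0.12 that did not pass. In control cells MT-ND6 was at 53.2 and 51.8, above both deprivations. Whether the counting used strand is not given in the sources used here, so reads of MT-ND6 and of the RNA antisense to it cannot be told apart.

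**Figure D4:**
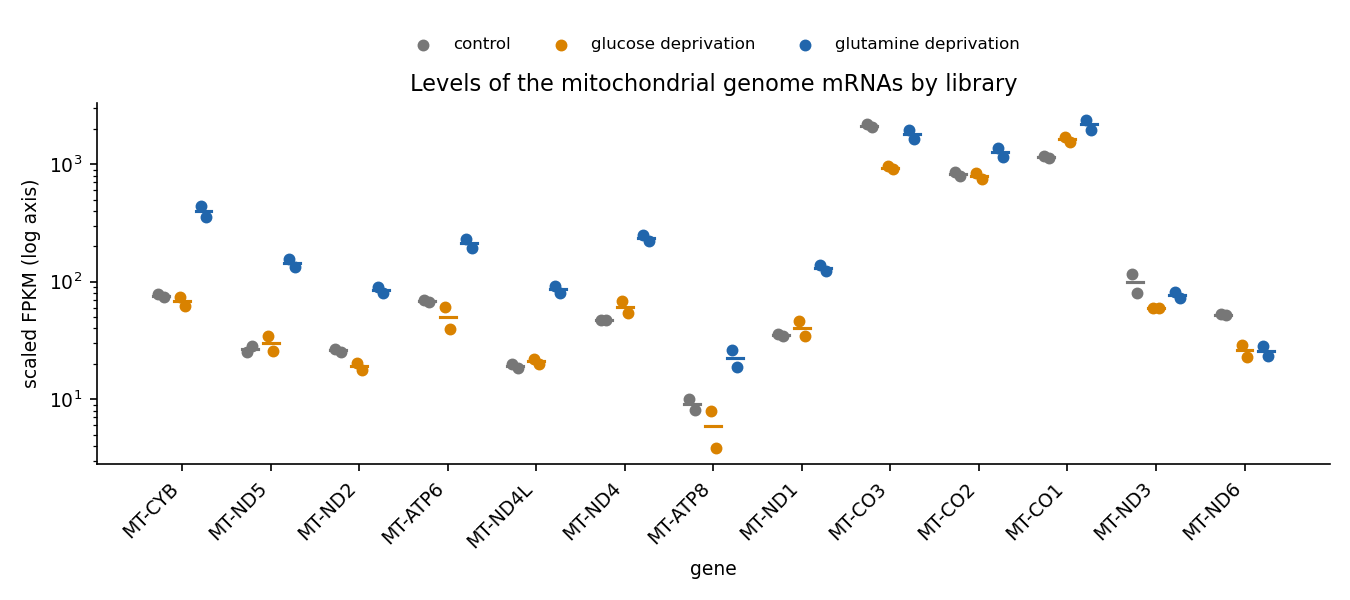
Scaled FPKM (log axis) of the 13 mitochondrial genome mRNAs in the 6 libraries, ordered by their difference; points are libraries and short bars are group means. From MT-CYB to MT-ND1 both glutamine-deprived libraries lie well above the other 4, and MT-ND6 overlaps between the deprivations.

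Nuclear genes of the same organelle had smaller differences, mostly of the other sign. Of 66 nuclear-encoded respiratory chain genes 39 fell and 3 rose, with a median of -0.21, and 18 fell without the column named for glucose. Their median turned to 0.08 with division by totals, where 2 fell and 6 rose, so their direction rests on the scaling. UQCRB of complex III differed by -0.71 ± 0.05 and COX7C of complex IV by -0.55 ± 0.06, while SDHA and SDHC of complex II rose by 0.22 ± 0.05 and 0.24 ± 0.06. Of 12 factors that maintain and express mitochondrial DNA 7 fell and 1 rose, with a median of -0.20 that turned to 0.09 with division by totals, and 4 fell without the column named for glucose. TFAM, which packages mitochondrial DNA, stood at 25.0 and 23.5 against 20.4 and 21.1 and did not pass without that column (adjusted p = 0.0527). POLRMT, the mitochondrial RNA polymerase, stood at 14.3 and 16.99 against 15.4 and 15.1 and did not pass.

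All 79 cytosolic ribosomal protein mRNAs were lower in glutamine deprivation. Their median was -0.68 and their differences ran from -0.95 to -0.37. With the column named for glucose left out, 76 fell. The median was -0.52 with values as deposited, -0.38 with division by totals and -0.75 with upper-quartile scaling, and 28 passed with division by totals, where the SE was larger. RPS12 stood at 939 and 971 in glucose deprivation, 498 and 489 in glutamine deprivation and 715 and 685 in control cells, a difference of -0.95 ± 0.06 (adjusted p = 9.48e-07). RPL34 differed by -0.90 ± 0.06 and RPL21 by -0.87 ± 0.06. These genes have many processed pseudogenes that can take part of their reads.

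A list of long non-coding RNAs, most of which host small nucleolar RNAs in their introns, was mostly lower in glutamine deprivation. This does not hold for the class, since 117 of 631 long intergenic RNAs tested rose and 50 fell. Several of them, GAS5 among them, share with ribosomal protein genes the terminal oligopyrimidine start. Of the 14 listed RNAs measured 13 fell and 1 rose, with a median of -0.82, and 10 fell with division by totals. GAS5 stood at 98.3 and 107 against 39.5 and 35.6, a difference of -1.43 ± 0.07 (adjusted p = 2.3e-07), with 52.8 and 52.5 in control cells. SNHG6 differed by -1.34 ± 0.06, SNHG5 by -1.29 ± 0.07 and SNHG29 by -1.03 ± 0.07. NEAT1, the scaffold of nuclear paraspeckles, rose from 22.3 and 17.9 to 25.4 and 30.7, a difference of 0.46 ± 0.10, but did not pass without the column named for glucose (adjusted p = 0.119).

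Other genes of protein synthesis were mostly lower too. Of 28 ribosome biogenesis factors 19 fell and 4 rose, with a median of -0.34, and 5 fell with division by totals. RRS1, an assembly factor of the large subunit, stood at 32.0 and 32.6 against 12.6 and 12.95, a difference of -1.27 ± 0.06, and NPM1, the nucleolar protein nucleophosmin, differed by -0.85 ± 0.08. POLR1A, the largest subunit of RNA polymerase I, rose by 0.27 ± 0.05. Of 20 cytosolic aminoacyl-tRNA synthetases, which charge tRNAs with amino acids, 13 fell and 1 rose, and 2 fell with division by totals. SARS1 differed by -0.79 ± 0.06 while MARS1 rose by 0.28 ± 0.07.

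**Figure D5:**
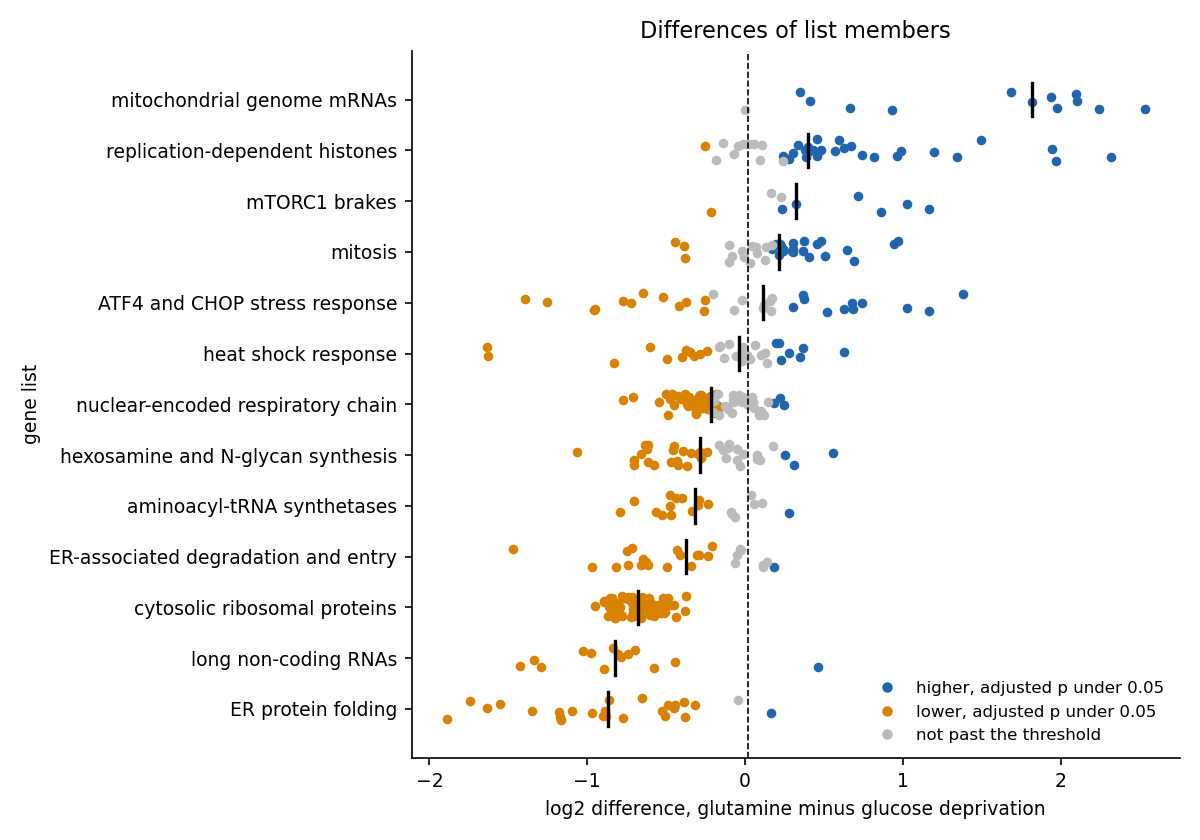
Log2 difference (glutamine minus glucose deprivation) of each measured member of 13 gene lists; points are genes, coloured by direction where the adjusted p is under 0.05, solid bars are list medians and the dashed line is the median of all genes tested, 0.02. Medians run from -0.87 for ER protein folding to 1.82 for the mitochondrial genome mRNAs. Signs of the nuclear-encoded respiratory chain, heat shock and ATF4 medians change in some alternatives.

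Of 23 glycolysis and glucose uptake genes 6 rose and 7 fell, near the 24.0% and 24.2% of all genes, with a median of 0.02 that turned to -0.06 with upper-quartile scaling. With values as deposited 12 rose and 3 fell, and with division by totals 8 rose and none fell. SLC2A1, the glucose transporter GLUT1, stood at 8.29 and 9.81 in glucose deprivation against 5.51 and 5.42, a difference of -0.63 ± 0.08, and hexokinase HK2 at 20.7 and 18.1 against 12.003 and 11.5, a difference of -0.67 ± 0.07. Neither passed with division by totals (adjusted p = 0.0502 and 0.0509). TIGAR, which lowers fructose bisphosphate levels, rose from 1.71 and 1.82 to 3.11 and 3.29, a difference of 0.60 ± 0.08. PGD of the pentose phosphate pathway fell by 0.69 on the log2 scale.

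GLUL, which makes glutamine, was lower in the cells that lacked it. It stood at 35.1 and 35.3 in glucose deprivation, 23.5 and 22.7 in glutamine deprivation and 39.2 and 40.0 in control cells, a difference of -0.58 ± 0.05 (adjusted p = 1.07e-05) that did not pass with division by totals (adjusted p = 0.184). ASS1, which makes argininosuccinate from aspartate, stood at 32.6 and 35.0 against 17.7 and 14.9, a difference of -1.01 ± 0.08, with 13.5 and 12.7 in control cells. PYCR3 of proline synthesis rose from 4.62 and 4.38 to 8.52 and 9.17, a difference of 0.84 ± 0.07. Of 21 amino acid transporters 10 rose and 8 fell, against 12 and 5 with values as deposited, 12 and 1 with division by totals, and 10 and 5 without the column named for glucose. SLC1A5, the main glutamine carrier, rose by 0.28 ± 0.07 but did not pass without glutamine deprivation replicate 1 (adjusted p = 0.0797) or without the filter on low values (adjusted p = 0.0824), while SLC38A2 differed by -0.27 ± 0.06 and did not pass without the column named for glucose (adjusted p = 0.0504), with values as deposited (adjusted p = 0.109) or with division by totals, where it turned to 0.02.

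Of 11 folate cycle genes 7 fell and 3 rose, with a median of -0.24. With division by totals the median turned to 0.05, 1 fell and 3 rose, and without the column named for glucose 4 fell and 2 rose. The mitochondrial enzyme MTHFD2 stood at 113 and 116 against 60.8 and 55.2, a difference of -0.97 ± 0.06, with 63.5 and 60.9 in control cells, and the mitochondrial SHMT2 differed by -0.69 ± 0.07. In nucleotide synthesis, which draws on glutamine, 10 of 23 genes fell and 2 rose, with a median of -0.12 that turned to 0.02 with values as deposited and 0.16 with division by totals, where 1 fell. Without the column named for glucose 7 fell and 1 rose. The paralogs of the guanine nucleotide step parted. IMPDH2 stood at 222 and 234 against 101.5 and 95.8, a difference of -1.20 ± 0.06 (adjusted p = 3.24e-07). IMPDH1 rose from 17.1 and 19.6 to 25.6 and 25.4, a difference of 0.46 ± 0.07. Among the other nucleotide genes NME2, ADSL and PPAT fell by 0.58, 0.54 and 0.50 on the log2 scale.

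Lipid synthesis genes gave both directions. Of 25 cholesterol genes 14 fell and 2 rose, with a median of -0.21 that turned to 0.07 with division by totals, where 2 fell and 2 rose. Leaving out the column named for glucose, 12 fell and 1 rose. SQLE, which makes squalene epoxide, differed by -0.97 ± 0.05. Of 13 fatty acid genes 7 rose and 2 fell, with a median of 0.18. FASN, the fatty acid synthase, stood at 41.7 and 44.0 against 72.7 and 78.8, a difference of 0.81 ± 0.06 (adjusted p = 4.46e-06), with 37.2 and 37.9 in control cells. ELOVL6 rose by 0.57 ± 0.06, and the regulator SREBF1 by 0.44 ± 0.07. Leaving out the column named for glucose, 4 fatty acid genes rose and 2 fell.

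Replication-dependent histone mRNAs, made in S phase and without a poly(A) tail, were higher in glutamine deprivation. They enter these libraries because ribosomal RNA was removed instead of selecting poly(A). Of 38 measured 26 rose and 1 fell, with a median of 0.40. In the fit without the column named for glucose 21 rose and 1 fell. H1-3 stood at 21.3 and 20.6 in glucose deprivation, 100.3 and 117 in glutamine deprivation and 267 and 242 in control cells, a difference of 2.32 ± 0.07 (adjusted p = 5.04e-08). H2AC4 differed by 1.94 ± 0.09. The summed level was 8156 and 9209 in glucose deprivation and 11813 and 11137 in glutamine deprivation, against 23751 and 22847 in control cells. Histone genes are near-identical copies, so the split of reads among them is uncertain.

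Cell cycle genes gave both directions too. Of 37 mitosis genes 22 rose and 3 fell, with a median of 0.21. MKI67, the proliferation marker, stood at 21.6 and 18.2 against 40.6 and 38.8, a difference of 0.97 ± 0.08, and PLK1, a mitotic kinase, at 11.4 and 10.97 against 23.1 and 21.7, a difference of 0.94 ± 0.06. CDK1, TTK and NUF2 fell by 0.38, 0.44 and 0.39 on the log2 scale. In DNA replication 17 of 38 fell and 6 rose, beside 24.2% and 24.0% of all genes tested. The median of -0.11 turned to 0.04 with values as deposited and 0.18 with division by totals. Only 11 fell and 4 rose in the fit without the column named for glucose. PRIM1, a primase subunit, differed by -0.78 ± 0.05, while the cyclin CCND1 rose from 7.73 and 7.63 to 11.9 and 12.8, a difference of 0.62 ± 0.06.

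By size of difference among genes with a mean of at least 3 on the log2 scale, the 12 higher genes were FP671120.2, 7 mitochondrial mRNAs, MTATP6P1, SNORD3B-2 and the histones H1-3 and H2AC4. SNORD3B-2 did not pass with robust variance moderation (limma adjusted p = 0.0725), nor MT-ATP8 without the filter on low values (limma adjusted p = 0.0553). FP671120.2, a transcript annotated as still to be tested on chromosome 21, stood at 25.4 and 45.3 against 395 and 363. Its difference was 3.44 ± 0.19, and control cells, at 72.3 and 107, lay between the groups. The 12 lower genes were RN7SL5P, PDIA4, MANF, CALR, HSPA8, SLIT2-IT1, HSP90B1, TFRC, NEU1, TLCD1, JUN and GAS5. RN7SL5P, a copy of the signal recognition particle RNA, rested on 1 library, with 40.6 and 1105 in glucose deprivation against 25.7 and 29.2, and did not pass without the column named for glucose (adjusted p = 0.271). NEU1, a lysosomal sialidase, stood at 16.6 and 16.7 against 5.69 and 5.14, a difference of -1.46 ± 0.06. JUN, a subunit of AP-1, stood at 64.6 and 66.4 against 27.1 and 20.7, a difference of -1.43 ± 0.10. SLIT2-IT1 lies in an intron of SLIT2 on the same strand, so reads of unspliced SLIT2 cannot be told apart from it.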

How the data were processed

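Total RNA of 95D cells was depleted of ribosomal RNA and read as pairs, 150 bases per read, as the labels' protocols state. The submitters' processing notes name HISAT2 2.0.5, StringTie and hg38, while the annotation, strand handling and StringTie version are not given in the sources used here. Deposited values of 59609 gene names were taken to be FPKM made by the authors. No header names the unit, which was inferred from the low values of genes with 1 exon, since 93.7% to 94.5% of these came out as whole reads within 0.05. These steps also gave the depth, and at 1 FPKM a gene of 2 kb is then covered by 69.1 to 97.9 reads (counting error 10.1% to 12.03%).

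Each library was scaled by its trimmed mean log ratio to the average library, computed where the average reached 1 FPKM after trimming 30% of the ratios and 5% of the abundances from both ends. Genes reaching 1 FPKM in any of the 4 libraries were tested with limma 3.58.1 in R 4.3.3 on log2(scaled FPKM + 1), two-sided, with 2 residual degrees of freedom and a variance trend over inferred reads (mean FPKM times GENCODE 29 exon length, the median length for 317 genes without one). Adjusted p-values are Benjamini-Hochberg values over all genes tested, with a threshold of 0.05. Gene lists were described by counts and medians without a test. The members and lists were chosen with earlier results of these data known.

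Named genes were the 5 markers, a list of nutrient-linked genes, up to 4 members per direction in each list with any member its role needed, and the 12 with the largest difference per direction. The last had to pass, to have a mean of at least 3 on the log2 scale, groups that do not overlap and transcripts of at least 200 bases, with at most 2 histones. Alternatives covered scaling, pseudocount, filter, variance trend, the libraries in the fit, the replicate block and trends over length and GC content. Promoter windows came from RefSeq (GRCh38.p14), and 9921 of the 17035 genes tested matched one by symbol. Single-gene results of a few list members are not reported here, and these genes stay in the counts.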

Additional observations from a re-analysis of the deposited data

How the results depend on the processing

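The count of genes that differ, 8219, stayed within 1.5 times in every alternative run but one, and ranged from 5319 to 7433 when 1 library was left out in turn, with 5319 without glutamine deprivation replicate 1. The genes higher in glutamine deprivation, 4091, ranged from 2514 to 3591 over the same omissions and the genes lower, 4128, from 2805 to 3842. The lower genes numbered 2349 with values as deposited and 555 with division by totals. Leaving out the column named for glucose but keeping the controls in the fit gave 7395. Without a filter on low values 6005 of 34091 genes passed, and with a variance trend over level 6771 passed. The replicate number used as a replicate block gave 8002 genes, 4004 higher and 3998 lower. Deviations of same-numbered libraries correlated across genes with r = -0.02. This cannot settle whether the numbers pair samples, since genes are not independent and the column named for glucose got its number by position. With 2 per group the block leaves 1 residual degree of freedom.

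Of 39 genes recomputed, 28 kept direction and call in every alternative. SLC38A2 changed sign with division by totals (0.0208). RN7SL5P lost its call in 7 alternatives and TRIB3 in 5. Of 42 list medians, 24 changed sign in at least 1 alternative, most of them with division by totals. With 2 libraries per group, small differences in single genes can be missed. The SE had a median over genes of 0.08, which is not a limit of detection. The cause of these shifts was not tested.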

Other observations

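Genes of the cell surface and the surrounding matrix were mostly higher in glutamine deprivation. Of 18 extracellular matrix and adhesion genes measured 11 rose and 3 fell, with a median of 0.30. TIMP2, an inhibitor of matrix proteases, stood at 2.17 and 2.29 in glucose deprivation and 6.51 and 5.67 in glutamine deprivation, a difference of 1.13 ± 0.08. LAMA5, a laminin chain, differed by 1.03 ± 0.06, from 2.02 and 2.04 in glucose deprivation. COL1A1, a collagen chain, stood at 0.403 and 0.409 against 1.90 and 2.03 and entered the test only through glutamine deprivation, so its call is no support for the count. Of 13 interferon-stimulated genes 7 rose and 2 fell, and without the column named for glucose 4 rose and 2 fell. IFITM1 stood at 7.39 and 7.63 against 16.3 and 15.4, a difference of 0.98 ± 0.08, while ISG15 moved from 9.05 and 12.03 to 5.59 and 5.46, a difference of -0.81 ± 0.12. Of 17 p53 targets 7 rose and 5 fell, with 6 and 2 without the column named for glucose, and the sign of their median changed in 5 alternatives. Of all genes tested 24.0% rose and 24.2% fell. CDKN1A, the cell cycle inhibitor p21, rose by 0.71 ± 0.11 and GADD45A fell by 0.99 on the log2 scale.

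POLR2A, the largest subunit of RNA polymerase II, stood at 22.1 and 18.7 in glucose deprivation, 48.4 and 49.3 in glutamine deprivation and 12.1 and 14.3 in control cells, a difference of 1.23 ± 0.07 (limma adjusted p = 7.61e-07). Of the 11 other subunits measured, differences ran from -0.34 to 0.38. The splicing scaffold SRRM2 rose by 0.75 ± 0.08. The mitochondrial ribosomal RNAs MT-RNR1 and MT-RNR2, singled out after their values were seen, rose by 1.24 ± 0.08 and 1.34 ± 0.09, though removal of ribosomal RNA can affect them.

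The replicates of glutamine deprivation differed in the ATF4 and CHOP list. Of its 31 measured genes 29 were higher in glutamine deprivation replicate 1 than in the column named for glucose, with a median difference of 0.28, against 9070 of all 17035 genes and a median of 0.01. Between the glucose-deprived libraries 14 of 31 were higher in replicate 1. Of the 13 mitochondrial genome mRNAs all 13 were higher in replicate 1 of both deprivations, with medians of 0.25 and 0.26. Other lists shifted together too. Of 79 cytosolic ribosomal protein mRNAs 78 were higher in replicate 1 of glutamine deprivation, with a median of 0.11. In glucose deprivation 10 were, with a median of -0.11. Of 38 replication-dependent histone mRNAs 28 and 5 were higher in replicate 1 of glutamine and glucose deprivation, with medians of 0.05 and -0.18.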
